A study of Mus musculus with 22 samples.

Results

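Clone C50 is 1 of 4 GFP reporter clones of mpkCCD cells, immortalised mouse cells of the renal cortical collecting duct, and the data described here compare its sorted GFP-positive cells with its sorted GFP-negative cells. Its members are the 4 libraries labelled C50, 2 GFP-positive and 2 GFP-negative, of 22 libraries in the series and 16 from reporter clones. Every clone library came from cells given dDAVP, also called desmopressin, which activates the V2 receptor of vasopressin. The other clones, C1, C11 and C43, have the same 2 fractions with 2 libraries each, and unsorted wild-type (WT) cells gave 3 vehicle and 3 dDAVP libraries. All cells were the mpkCCDc11 secondary clone 38, grown on permeable supports and moved before treatment to a simple medium with dexamethasone, without serum or growth factors. The protocol names several dDAVP doses and durations without assigning them to libraries, and the promoter that drives GFP is not given in the sources used here. Each reporter line is a single clone, and the labels do not say that replicates came from separate cultures, so the p-values measure the spread between these libraries, which may be technical.

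Principal cells of the collecting duct reabsorb water through aquaporin-2, encoded by Aqp2. Vasopressin binds the V2 receptor, which acts through Gs, adenylyl cyclase, cyclic AMP and protein kinase A. This pathway moves the channel to the apical membrane and, over longer times, raises transcription of Aqp2. The comparison asks which transcripts differ between cells of 1 clone that carry the reporter signal and cells that do not, when both have received the agonist.

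Expression was deposited as TPM, a transcript abundance scaled to the same total in each library and keeping no sequencing depth. Changes are given as GFP-positive minus GFP-negative in log2(TPM + 1), where the added 1 shrinks changes of low genes. The library labelled GFP-negative replicate 1 stood apart from the rest. Cytosolic ribosomal-protein genes took 8.54% of its TPM against 3.96% to 6.31% in the other 21 libraries, and 12293 genes reached 1 TPM in it against 12529 to 14341 elsewhere. Genes above 0 TPM numbered 17677 and 30045 in GFP-negative replicates 1 and 2, and 18510 and 27879 in GFP-positive replicates 1 and 2. That count thus split by replicate number in both fractions. The median deviation of GFP-negative replicate 1 from the mean of the 16 clone libraries ran from 0.19 in the shortest quintile of transcripts to -0.67 in the longest quintile (log2). GFP-negative replicate 2 ran only from 0.04 to 0.08 over the same quintiles, with its highest value, 0.14, in the middle. The GFP-positive libraries ran from -0.11 and -0.12 in the shortest to 0.12 and 0.10 in the longest quintile. From shortest to longest quintile, the median C50 change went from -0.21 to 0.41 with all libraries. Without GFP-negative replicate 1 it went from -0.12 to 0.04, so a smaller length difference remained. A gene is therefore said to have risen or fallen only where limma gave an adjusted p under 0.05 with the same direction both with all 16 clone libraries and without GFP-negative replicate 1.

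**Figure D1:**
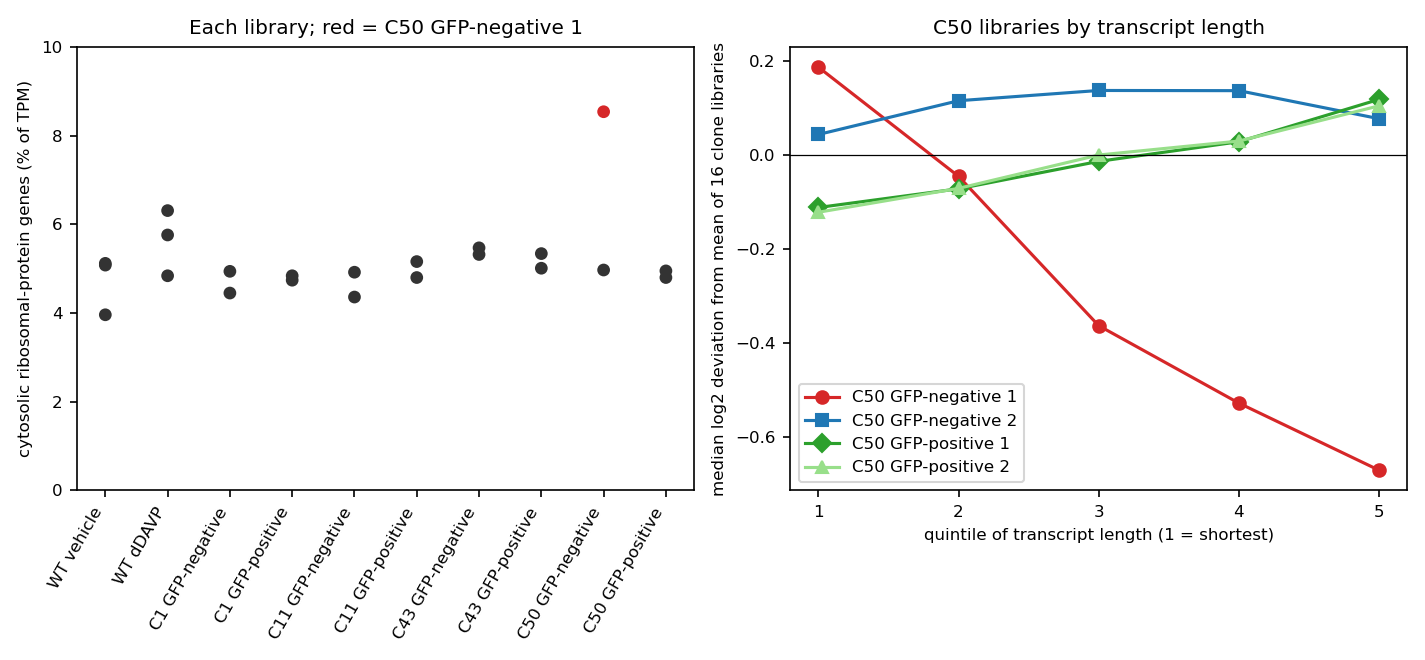
Left, share of TPM in cytosolic ribosomal-protein genes (percent) for each of the 22 libraries by group; the red point, C50 GFP-negative replicate 1, is at 8.54% and the others lie between 3.96% and 6.31%. Right, median log2 deviation of each C50 library from the mean of the 16 clone libraries by quintile of transcript length. GFP-negative replicate 1 descends from 0.19 to -0.67, and the GFP-positive libraries rise from -0.11 and -0.12 to 0.12 and 0.10.

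The GFP transcript checked the labels. It was at 5.31 and 10.90 TPM in the GFP-negative libraries and at 1567 and 1425 TPM in the GFP-positive ones, so the groups were far apart. The log2 difference was 7.43 ± 0.22 (SE), and 6.97 without GFP-negative replicate 1. Since the cells were sorted on GFP, this difference describes the sort and is not a result. WT libraries held 0 to 0.79 TPM of GFP.

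Aqp2, the gene named in the series title, was well expressed in the GFP-negative cells of C50 too. It stood at 1232 and 1254 TPM in GFP-negative cells (1243 ± 16.2, SD, n = 2) and at 4894 and 4409 TPM in GFP-positive cells (4651 ± 342, SD, n = 2). The groups did not overlap, and the rise was 1.90 ± 0.087 (log2, SE; adjusted p = 2.2e-07, limma), a ratio of means of 3.74, which is also the ratio in the authors' deposited table. Without GFP-negative replicate 1 it was 1.89. An exact permutation of the 4 library labels, two-sided, gave p = 0.3333, the smallest that its 6 arrangements can give. The GFP-negative mean exceeded that of WT vehicle cells (69.1 ± 5.43 TPM, SD, n = 3), C1 (69.5 ± 4.29, SD, n = 2) and C11 (249 ± 19.2, SD, n = 2), and lay below that of C43 (1624 ± 79.1, SD, n = 2), with no overlap of libraries. The GFP-positive mean lay above C1 (2017 ± 13.5, SD, n = 2), C11 (3002 ± 150, SD, n = 2) and unsorted WT cells under dDAVP (2868 ± 139, SD, n = 3), and below C43 (6952 ± 428, SD, n = 2).

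The 250 bases before the RefSeq start of Aqp2, chr15:99578806-99579055 on the plus strand of GRCm38.p6, are shown because the series title names this gene. Capitals mark CGTCA, the other strand of TGACG, a partial site of the cyclic AMP response element, and GGAAG, the core letters bound by ETS factors:
Aqp2: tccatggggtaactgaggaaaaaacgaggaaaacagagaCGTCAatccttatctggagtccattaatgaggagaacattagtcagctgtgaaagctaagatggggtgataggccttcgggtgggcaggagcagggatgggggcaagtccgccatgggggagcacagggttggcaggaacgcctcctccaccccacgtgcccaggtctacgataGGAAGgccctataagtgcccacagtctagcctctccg
TGACG, on either strand, occurred in 33.2% and GGAAG in 75.9% of the 9354 tested genes that have such a window (250 bases before to 50 after the start), so neither match is rare. The full element TGACGTCA occurred in 3.4% of these windows, and in none of the 9 windows of principal-cell genes that rose.

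The rest of the difference was wide. Of 13113 genes with a mean of at least 1 TPM over the clone libraries, 936 rose and 1389 fell (7.14% and 10.6%), the shares against which the counts of each gene list below are set. The fit with all libraries alone called 1680 higher (12.8%) and 1806 lower (13.8%), and the fit without GFP-negative replicate 1 called 1020 higher (7.78%) and 2091 lower (15.9%). Without GFP-positive replicate 2 the 936 and 1389 became 588 and 879. They were 1134 and 1199 with median-ratio scaling and 1222 and 1300 with quantile normalization. Without GFP-negative replicate 2, the fit called 4624 higher and 2214 lower, so which direction held more calls turned with the GFP-negative library used. A change of at least 1 on the log2 scale was reached by 527 of the 936 and 551 of the 1389. The libraries of the 2 fractions did not overlap for 27.8% of all genes on the higher side and 25.7% on the lower side. The median change over all genes was 0.09 with all libraries and -0.09 without GFP-negative replicate 1.

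The largest rises included Cyfip2, Ptges, Lncpint and Cpeb2. Cyfip2, a subunit of the actin-regulating WAVE complex, was at 2.76 and 8.53 TPM in GFP-negative and 34.5 and 34.3 TPM in GFP-positive libraries, a rise of 2.56 ± 0.36 (adjusted p = 0.000499, limma) that was 1.89 without GFP-negative replicate 1. Ptges, a prostaglandin E synthase, went from 6.80 and 4.35 to 27.1 and 30.9 TPM, a rise of 2.21 ± 0.20. Lncpint, a long non-coding RNA, went from 3.28 and 6.04 to 36.6 and 23.5 TPM. Replicates lay close together for Ptges, whereas Tbc1d16 (a Rab GTPase-activating protein), Sned1 (a secreted matrix glycoprotein), Spata13, Arhgef37 and Arrdc3 (an arrestin-domain protein) were all lower in GFP-negative replicate 1 than in replicate 2. Without replicate 1 their rises fell from between 2.18 and 2.49 to between 1.12 and 1.69. Cpeb2, which binds cytoplasmic polyadenylation elements, was at 0.58 and 1.94 TPM against 10.4 and 8.41 TPM. Spata13 was no longer called when either GFP-positive library was left out, nor Arhgef37 without GFP-positive replicate 1.

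Spp1, Psca and Scx were among the largest falls and had close replicates. Spp1, which encodes the secreted phosphoprotein osteopontin, was at 60.8 and 51.1 TPM in GFP-negative libraries and at 0.69 and 0.34 TPM in GFP-positive ones, a change of -5.24 ± 0.17 (adjusted p = 1.17e-08, limma). Psca, a surface protein held by a lipid anchor, was at 114 and 101 against 2.96 and 4.18 TPM, a change of -4.58 ± 0.18 (adjusted p = 6.59e-08, limma). Scx, the transcription factor scleraxis known from tendon, was at 178 and 164 against 8.12 and 6.27 TPM. All GFP-negative values of these genes were many times the GFP-positive ones, and leaving out GFP-negative replicate 1 moved the log2 changes by little, to -5.11, -4.49 and -4.34. Emp3 (an epithelial membrane protein, -4.56), Cdh13 (a cadherin without a transmembrane domain, -3.79), Slc4a11 (a membrane transporter, -3.66), Fbln2 (the matrix protein fibulin-2, -3.63) and Wnt10a (a Wnt ligand, -3.60) also fell. Slc4a11 was at 72.5 and 165 TPM in the GFP-negative libraries, and its change was -4.25 without GFP-negative replicate 1.

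**Figure D2:**
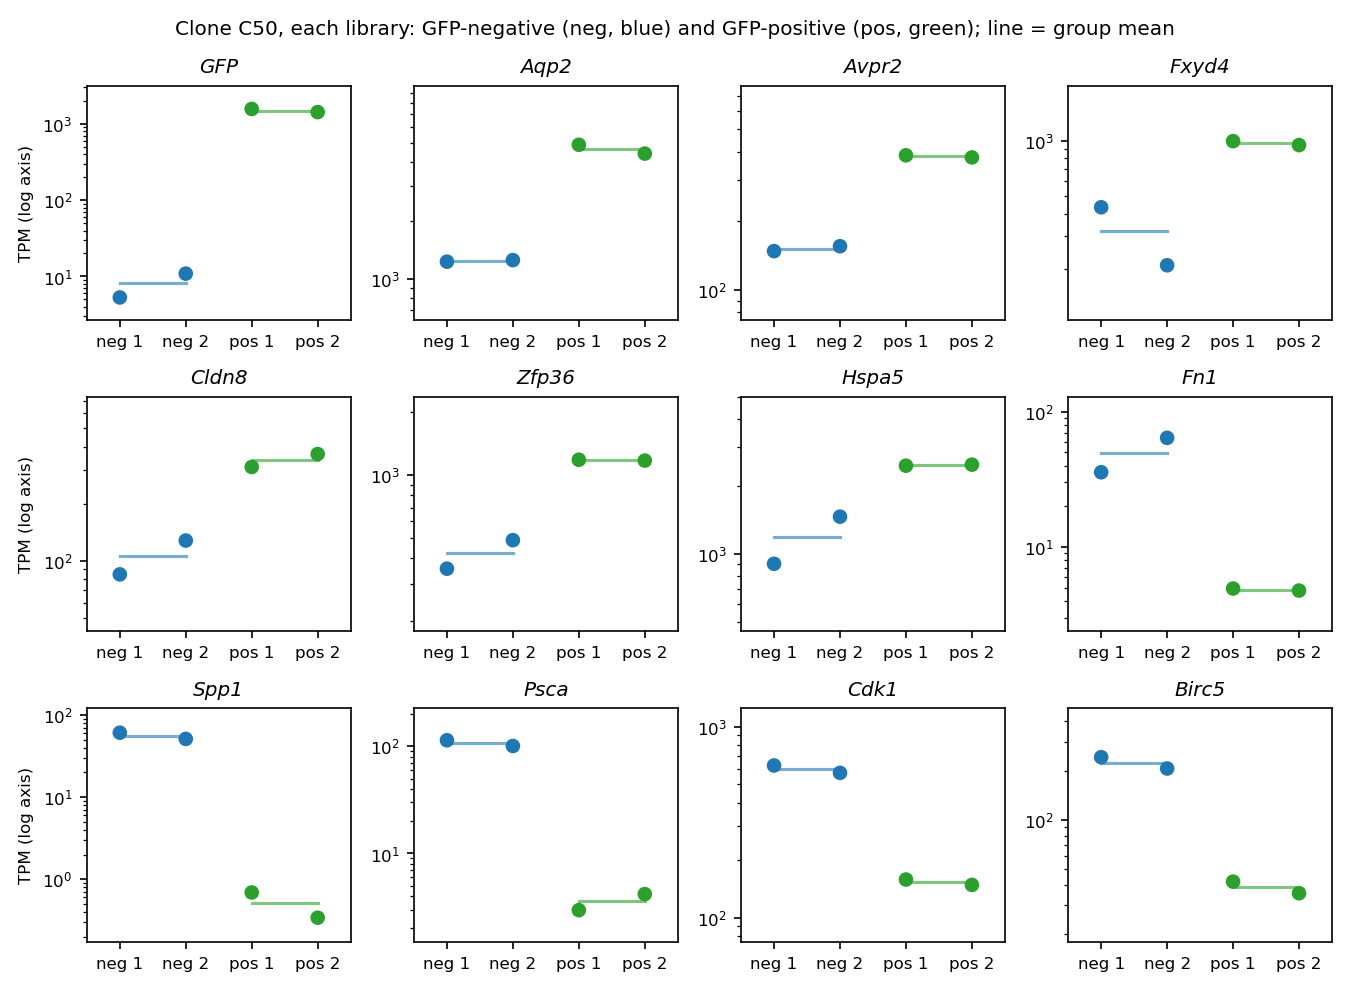
TPM (log axis) of 12 genes in each C50 library; neg 1 and neg 2 are the GFP-negative and pos 1 and pos 2 the GFP-positive libraries, and the line is the group mean. GFP rises from 5.31 and 10.90 to 1567 and 1425 TPM, Aqp2 from 1232 and 1254 to 4894 and 4409 TPM, and Spp1 goes the other way, from 60.8 and 51.1 to 0.69 and 0.34 TPM.

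Principal-cell genes were higher in GFP-positive cells. Of 18 tested genes in that list, 12 rose, where 7.14% of all genes did, and 0 fell, and the list's median change was 1.17, or 0.84 without GFP-negative replicate 1, against medians of all genes of 0.09 and -0.09. Avpr2, the V2 receptor itself, was at 148 and 155 TPM in GFP-negative and 385 and 377 TPM in GFP-positive libraries, a rise of 1.33 ± 0.085 (adjusted p = 2.23e-06, limma). Scnn1g, the gamma subunit of the epithelial sodium channel, went from 7.76 and 10.7 to 29.9 and 31.7 TPM. Fxyd4, a regulator of the sodium pump, went from 433 and 209 to 994 and 946 TPM. None of these 3 overlapped between fractions, although the GFP-negative replicates of Fxyd4 differed from each other. The pump subunit gene Atp1b1 (1.03), the kinase Sgk1 (1.5), which raises sodium channel activity, the ubiquitin ligase gene Nedd4l (1.17, or 0.75 without GFP-negative replicate 1), the transcription factor gene Gata3 (1.37), Fxyd2 (0.98), Npnt (1.57) and Ptgs1 (0.70, or 0.36 without it) also rose. Npnt was at 114 and 326 TPM against 559 and 588 TPM; its rise was 0.81 without GFP-negative replicate 1 and was not called without GFP-positive replicate 2.

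Other defining principal-cell markers did not follow. Aqp3, the basolateral water channel, was at 1.35 and 2.54 TPM against 0.57 and 1.00 TPM, and Scnn1b, the beta subunit of the sodium channel, did not exceed 0.39 TPM in any C50 library. Scnn1a, the alpha subunit, was at 42.2 and 124.9 TPM against 154 and 164 TPM. Its change of 1.12 became 0.35 (adjusted p = 0.148, limma) without GFP-negative replicate 1. The epithelial markers Krt8, a keratin (2996 and 3385 against 3207 and 3203 TPM, overlapping between fractions), and Cdh1, E-cadherin (125 and 427 against 518 and 532 TPM), were well expressed. Among the principal-cell markers, Aqp2, Avpr2, Scnn1a, Scnn1g and Fxyd4 were present, while Aqp3 and Scnn1b were near 0.

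Intercalated cells, the acid-base cells of the same duct, share several of these genes. Of 10 tested genes of that list 3 rose, where 7.14% of all genes did: Atp6v0a4, a subunit of the proton pump (20.9 and 30.0 against 91.1 and 93.9 TPM, a rise of 1.84), the bicarbonate transporter Slc4a9 (2.11 and 2.72 against 8.17 and 8.83 TPM, 1.48) and carbonic anhydrase 2, Car2 (0.79). The list's summed level was 256 and 326 TPM in GFP-negative and 616 and 576 TPM in GFP-positive libraries, and 340 to 725 TPM in the libraries of the other clones. Its defining markers Slc4a1, Slc26a4 and Foxi1 stayed at or under 0.48 TPM in every C50 library. Atp6v1b1, a proton pump subunit, was at 19.4 and 27.4 against 86.8 and 61.0 TPM, and was not called without GFP-negative replicate 1 (adjusted p = 0.0657, limma). Across intercalated, other kidney, stromal and blood cell types, 15 of 17 defining markers were under 1 TPM in all 4 libraries. Umod and Adgre1 were listed at 0, and the exceptions were Atp6v1b1 and the proximal endocytic receptor gene Lrp2 (5.26 to 12.6 TPM).

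Within the vasopressin pathway the receptor and some downstream members rose. Of 30 tested genes, 8 rose and 3 fell, where 7.14% and 10.6% of all genes did, so the falls were near the background share. The median change of 0.34 went to -0.06 without GFP-negative replicate 1, so the list as a whole kept no direction. Beside Avpr2, the rises were Adcy6 (an adenylyl cyclase, 0.96), Gng12 (a G-protein gamma subunit, 0.72), Akap11 (a protein kinase A anchor, 1.04), Crem (a cyclic AMP-responsive transcription factor, 0.96, or 0.54 without GFP-negative replicate 1) and the phosphodiesterases that degrade cyclic AMP, Pde4a (1.64, or 0.98 without it), Pde4b (1.16) and Pde4d (1.79). Pde4d was at 1.98 and 4.03 TPM against 15.1 and 10.2 TPM, with no overlap. Gnas, the Gs alpha subunit (-0.35), Pkig, an inhibitor of protein kinase A (-1.14), and Arrb2, an arrestin that uncouples receptors (-1.23), were the members that fell.

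Targets of cyclic AMP signalling rose in larger part. Of 19 tested genes of that list, 10 rose, where 7.14% of all genes did, and only Areg, an EGF receptor ligand, fell (-0.65). The median change was 1.09, or 0.71 without GFP-negative replicate 1. The list holds genes seen to respond to dDAVP in these WT cells, so its direction is no independent evidence. Cited1, a transcriptional coregulator, was at 26.3 and 18.7 TPM against 75.4 and 72.9 TPM, a rise of 1.70 ± 0.18. Baiap2l2, an actin- and membrane-binding protein, was at 31.6 and 42.9 against 157 and 113 TPM, a rise of 1.83 ± 0.19. Neither overlapped between fractions. The nuclear receptors Nr4a1 (1.45), Nr4a2 (1.41) and Nr4a3 (1.24) rose as well. Nr4a1 was abundant, at 752 and 2102 TPM against 3654 and 3237 TPM, and its change was 0.71 without GFP-negative replicate 1. Its call was lost without GFP-positive replicate 1.

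Immediate early genes, which are switched on quickly by many stimuli, held many rises. Of 25 tested, 12 rose and 4 fell, where 7.14% and 10.6% of all genes did, so the falls were near the background share. The median was 0.73, or 0.49 without GFP-negative replicate 1. Zfp36, an RNA-binding protein that destabilises mRNAs, was at 356 and 488 TPM against 1187 and 1175 TPM, a rise of 1.5 ± 0.15. Fos (1.09), Jun (1.14, or 0.49 without GFP-negative replicate 1), Egr2 (0.90, or 0.43 without it), Klf2 (1.21), Klf6 (0.68), Btg2 (0.98), Arc (1.40, or 0.61 without it) and Ier2 (0.64) also rose. Dusp2, a phosphatase of MAP kinases, went the other way, from 49.6 and 56.7 to 5.54 and 6.13 TPM (-2.98 ± 0.20), and Fosl1 (-0.80), Ier5 (-0.36) and Atf3 (-0.92) fell too. The fit with all libraries called 16 members higher, and 8 without GFP-positive replicate 1. 3 of the rises, the Nr4a genes, belong to the cyclic AMP list as well.

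**Figure D3:**
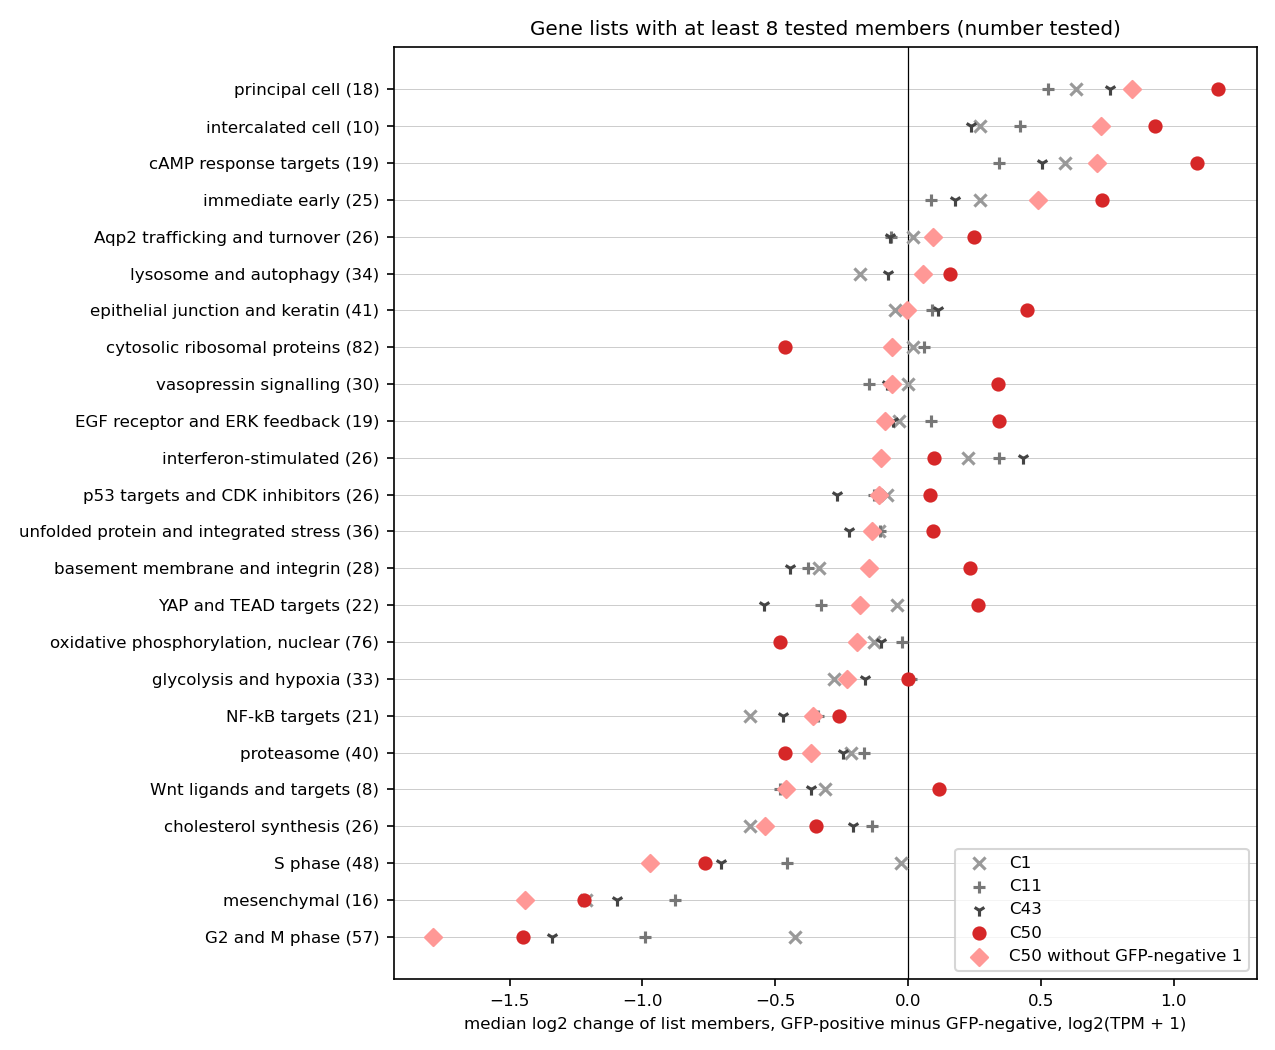
Median log2 change (GFP-positive minus GFP-negative) over the tested members of each list with at least 8 of them, for C50 with all libraries, C50 without GFP-negative replicate 1 and the other 3 clones. The principal-cell median in C50 is 1.17, or 0.84 without that library, and the G2 and M phase median is -1.45, or -1.79.

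Genes of the cell division cycle fell together. In the G2 and M phase list, which holds spindle, kinetochore and cyclin B-CDK1 genes, 44 of 57 tested genes fell and 0 rose, where 10.6% of all genes fell. The median change was -1.45, and -1.79 without GFP-negative replicate 1. Cdk1, the kinase that drives entry into mitosis, was at 625 and 572 TPM in GFP-negative libraries and 158 and 148 TPM in GFP-positive ones, a change of -1.96 ± 0.11 (adjusted p = 8.57e-07, limma). Birc5, the survivin subunit of the chromosomal passenger complex, was at 241 and 206 against 41.8 and 35.5 TPM (-2.50 ± 0.11), and Cenpa, the centromeric histone, at 230 and 199 against 43.1 and 35.7 TPM (-2.42 ± 0.14). Ccnb2, cyclin B2, was at 93.1 and 94.6 against 17.7 and 15.5 TPM (-2.43). All 4 genes were clearly apart in every library.

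The S phase list, of replication and nucleotide synthesis genes, had 31 of 48 fall and 0 rise, with a median of -0.77, or -0.97 without GFP-negative replicate 1. Rrm2, a subunit of ribonucleotide reductase, was at 133 and 217 against 40.6 and 45.8 TPM (-1.95 ± 0.19), and Gmnn, geminin, which blocks relicensing of origins, at 185 and 171 against 54.5 and 55.3 TPM (-1.68 ± 0.091). Clspn and Gins1 fell by 1.84 and 1.76, and Clspn was not called without GFP-positive replicate 1. These transcripts were reduced and not absent, since every named member remained above 7 TPM in GFP-positive libraries. Bulk RNA cannot tell fewer cycling cells from less of each transcript per cell.

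The promoters of 3 genes of the G2 and M phase list are shown, those of the largest falls among 10 selected genes with both motifs searched within 120 bases before the start. The selection passed over genes on a single chromosome, so these 10 may not be all the genes with both motifs. Capitals mark TTTGAA (or TTCAAA), the letters of the cell cycle homology region, and CCAAT (or ATTGG), the CCAAT box; the windows are RefSeq, GRCm38.p6, 5′ to 3′ in the direction of the gene. They are chr2:164769809-164769928 (plus strand), chr10:69352913-69353032 (minus strand) and chr2:129297213-129297332 (minus strand) in this order:
Ube2c: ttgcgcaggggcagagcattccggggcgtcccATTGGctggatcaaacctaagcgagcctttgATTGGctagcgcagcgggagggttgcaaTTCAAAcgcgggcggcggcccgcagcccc
Cdk1: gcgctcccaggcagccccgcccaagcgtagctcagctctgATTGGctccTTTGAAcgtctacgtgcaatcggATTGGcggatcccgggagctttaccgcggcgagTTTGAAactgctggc
Ckap2l: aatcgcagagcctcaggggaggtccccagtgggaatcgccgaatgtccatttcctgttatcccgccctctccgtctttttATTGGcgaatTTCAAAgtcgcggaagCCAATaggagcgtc
In windows from 250 bases before to 50 after the start, TTTGAA occurred in 11.7% of the 9354 tested genes with a window, 17.6% of the 1102 that fell and 73% of the 37 G2 and M phase genes that fell. CCAAT occurred in 39.2%, 44.4% and 78.4% of the same sets. In the 23 S phase genes that fell, TTTGAA occurred in 13% and CCAAT in 69.6%, the latter close to its share in the G2 and M phase genes. Both motifs were searched on both strands after the falls had been seen, and a match describes letters only. Ube2c, the ubiquitin-conjugating enzyme of the anaphase-promoting complex, was at 693 and 535 against 149 and 145 TPM, and Ckap2l, a spindle protein, at 29.8 and 45.3 against 11.1 and 11.9 TPM.

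**Figure D4:**
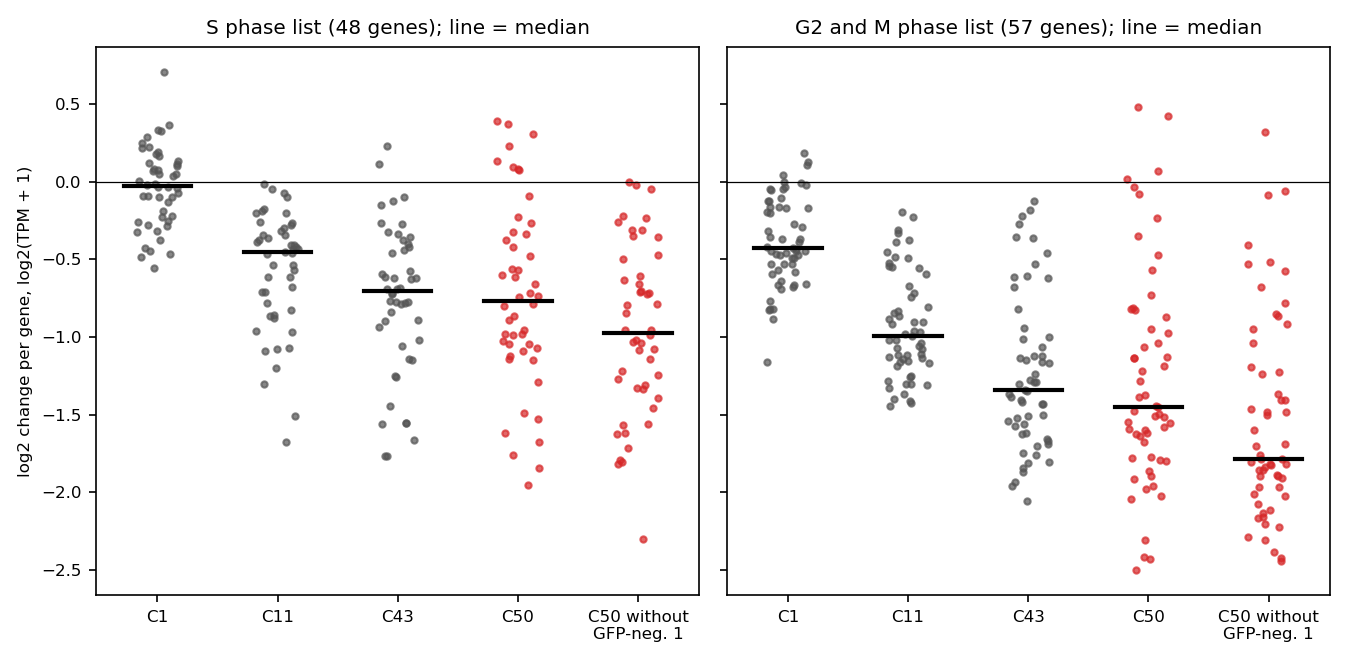
Log2 change (GFP-positive minus GFP-negative, log2(TPM + 1)) of each tested gene of the S phase (48) and G2 and M phase (57) lists, by clone; points are genes and the black line their median. The G2 and M phase medians are -0.43 (C1), -0.99 (C11), -1.34 (C43) and -1.45 (C50).

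Mesenchymal genes fell in the majority. Of 16 tested mesenchymal genes of 36 listed, 9 fell and 0 rose, with a median of -1.22, or -1.44 without GFP-negative replicate 1. Fn1, fibronectin, was at 35.7 and 64.0 against 4.96 and 4.79 TPM (-3.06 ± 0.35), and S100a4, a calcium-binding protein, at 68.6 and 46.0 against 13.1 and 8.94 TPM (-2.27 ± 0.23). Cald1 (caldesmon, -2.24), Tpm2 (a tropomyosin, -2.20), Tgfb1 (-1.24) and Tagln (-0.82) fell with Spp1 and Fbln2. The fibroblast marker Pdgfra was at or under 0.17 TPM and Col1a1 at or under 0.43 TPM in all C50 libraries. Type IV collagen genes were low and fell, Col4a1 by 1.77 and Col4a2 by 1.77 (2.37 without GFP-negative replicate 1), while the integrin ligand Npnt and the integrin gene Itga1 (1.44, or 0.78 without it) rose.

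Among 41 junction and keratin genes 11 rose and 3 fell, where 7.14% and 10.6% of all genes did, and the median of 0.45 went to 0.00 without GFP-negative replicate 1. Cldn8, a claudin of the distal nephron, was at 84.8 and 128 against 312 and 366 TPM (1.69 ± 0.17), and Cldn6, a claudin of embryonic epithelia, at 641 and 721 against 132 and 128 TPM (-2.38 ± 0.11). The 2 claudins thus moved in opposite directions with no overlap in either. Muc1, an apical mucin, rose from 271 and 389 to 986 and 1107 TPM. Of 8 tested Wnt ligands and targets 3 fell: Wnt10a, Wnt7a (25.5 and 59.9 against 6.06 and 9.21 TPM, -2.24, or -2.84 without GFP-negative replicate 1) and Ccnd1, cyclin D1, from 16.5 and 23.4 to 0.68 and 0.76 TPM (-3.59 ± 0.24). The YAP and TEAD target Ankrd1 fell from 214 and 264 to 27.36 and 25.95 TPM (-3.11 ± 0.13), and of 22 members of its list 2 rose and 3 fell, near the 7.14% and 10.6% of all genes.

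Signalling and defence genes gave smaller groups. Of 21 tested NF-kB targets 5 fell, where 10.6% of all genes did, among them the chemokine gene Cxcl10 (43.2 and 28.4 against 2.70 and 4.51 TPM), Relb (-1.69), an NF-kB subunit, Tnfaip3 (-1.35), a feedback inhibitor, and Lcn2, the iron-binding lipocalin (1741 and 1346 against 453 and 460 TPM). C3, complement component 3, was the 1 that rose, from 37.5 and 66.8 to 254 and 195 TPM. The EGF receptor gene Egfr rose from 28.03 and 36.85 to 75.3 and 76.4 TPM and its ligand Btc from 20.1 and 20.7 to 56.6 and 60.8 TPM, while Etv4, an ETS factor downstream of ERK, was at 4.4 and 6.64 against 0 and 0.19 TPM (-2.56). Of 26 p53 targets and CDK inhibitors 3 rose and 5 fell, where 7.14% and 10.6% of all genes did. The falls included Gadd45a (158 and 133 against 33.7 and 31.9 TPM) and Phlda3 (80.8 and 78.0 against 26.8 and 25.2 TPM).

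In cholesterol synthesis 10 of 26 genes fell, where 10.6% of all genes did, and 0 rose (median -0.34, or -0.54 without GFP-negative replicate 1), among them Fdps, which makes farnesyl diphosphate, from 476 and 417 to 226 and 213 TPM (-1.02 ± 0.093). Without GFP-negative replicate 2 that median was 0.16. In glycolysis and hypoxia 7 of 33 fell against that 10.6%, including Gapdh (-1.05) and Eno1 (-1.02), and the list's median was 0.00, or -0.23 without GFP-negative replicate 1. The 1 gene that rose was Ndrg1, from 255 and 269 to 625 and 631 TPM. In the stress response list 5 of 36 rose, where 7.14% of all genes did, led by the chaperone gene Hspa5 (906 and 1467 against 2475 and 2501 TPM), and 8 fell, where 10.6% did (median 0.09, or -0.13 without that library), led by Phgdh, the first enzyme of serine synthesis (648 and 663 against 249 and 236 TPM), and the pseudokinase gene Trib3 (46.5 and 80.7 against 27.9 and 21.5 TPM). With all libraries 11, 8 and 9 members of these 3 lists were called lower, and 8, 5 and 5 without GFP-positive replicate 2.

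The medians of the ribosomal-protein and oxidative phosphorylation lists moved with GFP-negative replicate 1, and that of the proteasome list moved less. Cytosolic ribosomal-protein genes had 18 of 82 called lower with all libraries and 4 that fell by both fits, where 13.8% and 10.6% of all genes did. The 4 were thus under the background share, and the list's median of -0.46 became -0.06. Nuclear genes of oxidative phosphorylation had 37 of 76 called lower and 21 that fell, with medians of -0.48 and -0.19. The 37 became 7 without GFP-positive replicate 2 and 15 without replicate 1, and the 18 became 4 and 2. The proteasome list had 28 of 40 called lower (17 without GFP-positive replicate 2) and 22 that fell, with medians of -0.46 and -0.37, led by the assembly factor Psmg3 (147 and 104 against 50.8 and 50.0 TPM).

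The remaining lists held few calls. The counts of the interferon, basement membrane and lysosome lists were near the 7.14% of all genes that rose and 10.6% that fell. In Aqp2 trafficking and turnover 4 of 26 rose, Vamp2 (a vesicle fusion protein, 1.33, or 0.88 without GFP-negative replicate 1), Ezr (ezrin, 0.82, or 0.33 without it), Hspa5 and Nedd4l, and Stx3 (-0.60) and Stub1 (-0.43) fell. The list held 0 calls lower without GFP-positive replicate 2 and 1 without replicate 1. Among 26 interferon-stimulated genes Ifit1, Irf1 and Irf9 rose by 0.59 to 0.81 and Oas1a and Bst2 fell, with neither fall called when a GFP-positive library, replicate 1 or replicate 2, was left out. Of 28 basement membrane and integrin genes 2 rose and 4 fell, and the median of 0.23 turned to -0.15 without GFP-negative replicate 1. Of 19 genes of EGF receptor signalling and ERK feedback 3 rose and 2 fell. In lysosome and autophagy 4 of 34 rose, among them the protease gene Ctsd (589 and 751 against 1294 and 1252 TPM), and 4 fell, among them Cd63 (1565 and 1237 against 616 and 577 TPM). Of 7 tested mitochondrial genome transcripts mt-Nd4 and mt-Co1 rose, by 0.40 and 0.56, and both calls were lost without GFP-positive replicate 2, without GFP-negative replicate 2 and with median-ratio scaling. The lists of other cell types were hardly testable: 2 proximal tubule and 2 endothelial genes did not pass the test, Synpo was the 1 of 2 podocyte genes that rose and Cd14 the 1 of 3 leukocyte genes, and 0 genes of the loop of Henle and fibroblast lists reached the filter.

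The changes in C50 were set beside those of the other clones. Of its 936 rises, 782 (83.5%) had the same sign in all 3 other clones, and of its 1389 falls 1246 (89.7%). Over all 13113 genes, 18.4% were positive and 41.7% negative in all 3 of those clones. The same call was made in all 3 for 148 rises and 276 falls, and in none for 507 and 383, where C1 called 7.22% of all genes (2.31% higher, 4.91% lower), C11 7.94% (2.23% and 5.7%) and C43 16.3% (4.29% and 12%). A call of the opposite direction was made in at least 1 other clone for Gm44085, Med13 and Srsf11 among the rises and for Glipr2 among the falls, genes named here because they were so few. The median change of the 936 rises was 1.07 in C50 and 0.45, 0.40 and 0.50 in C1, C11 and C43. The members were picked on C50, so this larger size in C50 is a description.

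Where C50 differed from the other clones was tested as its change minus the mean of their changes. Of 13113 genes 122 were called (0.93%), 36 positive (0.275%) and 86 negative (0.656%), and 95 with and without GFP-negative replicate 1 (0.724%), 21 positive (0.16%) and 74 negative (0.564%). The count was 32 without GFP-positive replicate 1, 18 without GFP-positive replicate 2, 167 without GFP-negative replicate 1 and 6140 without GFP-negative replicate 2. Of those 6140, 4845 were positive and 1295 negative, so the direction with more calls turned with the GFP-negative library used. The median of this difference over all genes was 0.21.

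Aqp2 was among the negative ones: its change of 1.90 in C50 stood against 4.84 (C1), 3.59 (C11) and 2.10 (C43), a difference of -1.61 ± 0.10 (SE; adjusted p = 3.25e-05, limma). C43, the other clone with a high GFP-negative level, was close to C50. Avpr2, in contrast, changed by 1.24, 0.95 and 1.12 in C1, C11 and C43, a difference for C50 of 0.22 ± 0.099 that was not called (adjusted p = 0.211, limma).

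Cell-cycle genes made up part of the negative differences among the 95. They included 9 of the 57 tested genes of the G2 and M phase list and 6 of the 48 of the S phase list. Of all genes, 0.564% were called negative in this way. These counts were 3 and 1 without GFP-positive replicate 2 and 6 and 2 without GFP-positive replicate 1. Birc5 changed by -2.50 in C50 and by -0.67, -1.41 and -1.81 in C1, C11 and C43, a difference of -1.21 ± 0.13 (adjusted p = 0.00322, limma). Cdca3, a regulator of mitotic entry, differed by -1.36 ± 0.15 and Gmnn by -0.91 ± 0.10, and both fell in C50 by more than in any other clone. For the G2 and M phase list the median difference was -0.54 over 57 genes. The medians per clone were ordered C1, C11, C43, C50, from -0.43 to -1.45 with all libraries. Without GFP-negative replicate 2 the C50 median was -1.18, a smaller fall than the -1.34 of C43, and the median difference was -0.25, so the place of C50 in that order rests on this library.

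Among the surface and secreted genes, Psca (-4.58 in C50 against -3.80, -2.89 and -2.46) and Spp1 (-5.24 against -5.15, -2.72 and -3.44) differed from the mean of the other clones by -1.52 ± 0.21 and -1.47 ± 0.19, although Spp1 in C1 was close to C50. Cxcl10 changed by -3.00 in C50 and by -0.03, -1.29 and -0.70 elsewhere. Bst1, a surface enzyme acting on NAD, was at 35.0 and 44.7 against 4.79 and 3.00 TPM in C50, a change of -3.08 against -0.62, -0.74 and -1.24. Slc4a11, Fbln2, Wnt10a and Fn1 were not called for this difference (adjusted p = 0.809, 0.54, 0.858 and 0.633, limma), which does not show that the clones were alike.

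Among the positive differences, Cpeb2 changed by 2.26 in C50 and by 0.22, 0.53 and 0.10 elsewhere, and Utrn, utrophin of the membrane cytoskeleton, by 1.59 against 0.07, 0.23 and -0.02. Tc2n changed by 2.14 against 0.59, 0.65 and 0.81. B4galnt2, a glycosyltransferase, was at 5.49 and 8.93 against 13.5 and 14.5 TPM in C50, with changes of -0.92, -0.55 and -0.69 elsewhere. Stbd1, a glycogen-binding protein, fell in C50 by 1.08 and had changes of -1.31, -2.42 and -3.26 elsewhere, so its positive difference was a smaller fall. The calls for Cpeb2, Utrn, Tc2n, B4galnt2, Stbd1, Cxcl10 and Bst1 were lost without GFP-positive replicate 1 and also without replicate 2, that for Psca without replicate 1 and that for Spp1 without replicate 2.

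Short RNA genes had the largest differences, and 3 of them were listed at 0 in a fraction of C50. Snord70, a small nucleolar RNA, was listed at 0 in both GFP-negative libraries and at 30.4 and 44.9 TPM in the GFP-positive ones, at 0 in the 12 libraries of the other clones, and at 18.2 TPM in 1 WT vehicle library and 0 in the other WT libraries. The gene entry Mir5135 was at 31.8 and 121 TPM in the GFP-negative libraries and at 0 in the GFP-positive ones and in all libraries outside C50. The gene entry Mir678 was at 112 and 202 TPM against 0 and 0, and between 13.1 and 189 TPM in the other clones. Another, Mir130c, named after its values were seen, was listed at 0 in all 4 C50 libraries. Its called difference came from GFP-positive cells of C1 (41.9 and 99.0 TPM) and C43 (76.8 and 33.9 TPM), whose GFP-negative libraries, like all of C11, were at 0. The Mir entries are genes and not mature microRNAs, the reads behind all 4 entries are unknown, and no fold is given.

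**Figure D5:**
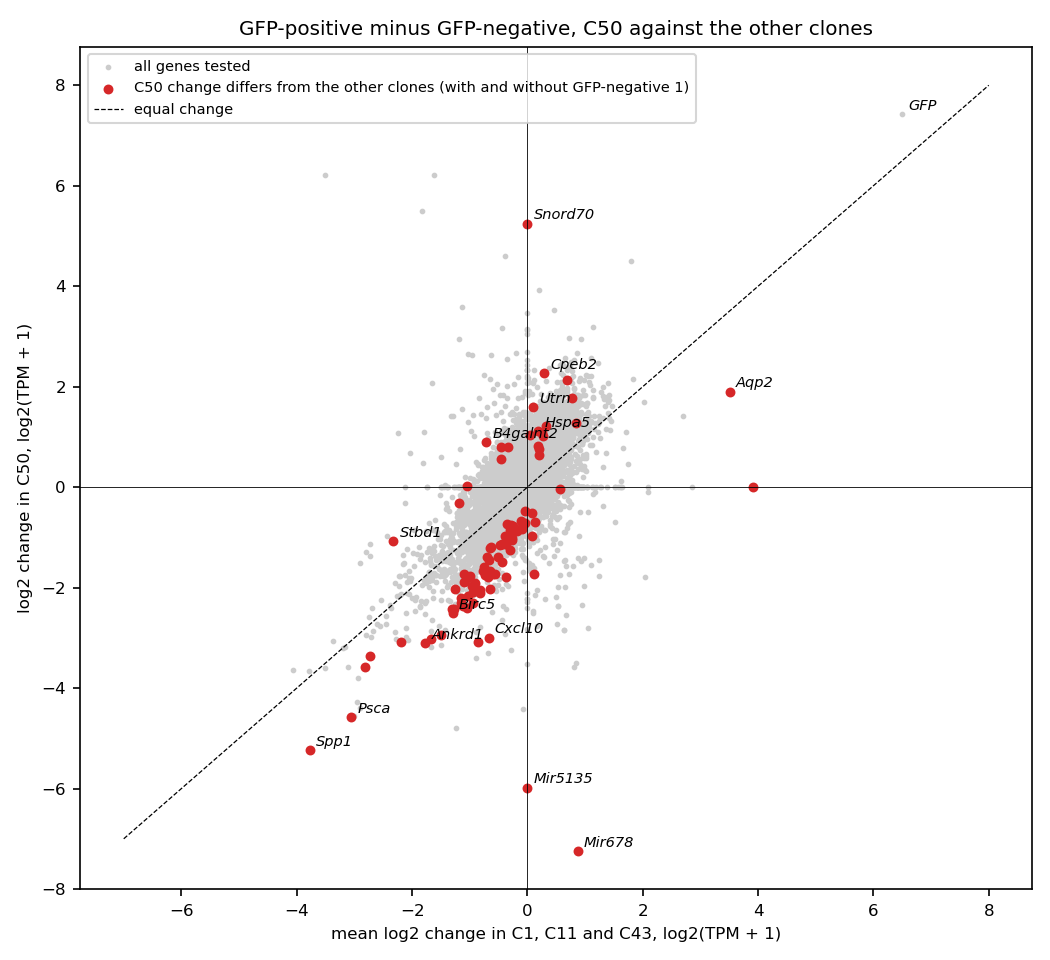
Log2 change (GFP-positive minus GFP-negative, log2(TPM + 1)) in C50 against the mean change in C1, C11 and C43, one point per gene tested; red marks the 95 genes whose change differed with and without GFP-negative replicate 1, and the dashed line is equal change. Aqp2 lies below the line at 1.90 in C50, and Snord70 and Mir5135 lie at 0 on the horizontal axis.

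Finally the C50 changes were set against the response of unsorted WT cells to dDAVP, which share no library with them. In WT 1198 of 13494 genes were called (8.88%), 320 higher (2.37%) and 878 lower (6.51%). Of 2313 genes that changed in C50 and were tested in WT, 18.85% were called in WT, where 9.33% of all 12765 genes tested in both were, and these make up 36.6% of the WT calls. Among them 190 were higher in both and 213 lower in both, while 27 were higher in C50 and lower in WT and 6 the reverse. With median-ratio scaling 269 were higher in both and 83 lower in both, so the balance of directions turned with the scaling, and the median WT change was -0.16.

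Aqp2 went from 69.1 to 2868 TPM in WT (5.36), Cited1 changed by 4.31 and Baiap2l2 by 3.30, each more than in C50. Cited1 and Baiap2l2 belong to the list that holds genes seen to respond to dDAVP in these WT cells. Their large WT changes are therefore no independent evidence. Fxyd4 (1.06), Ptges (1.56), C3 (1.88), Tc2n (1.03), Ndrg1 (1.05) and Avpr2 (0.57) were also called higher in WT. The largest falls in C50 had small changes in WT that were not called: Spp1 -0.37 (adjusted p = 0.0646, limma), Psca -0.12 (adjusted p = 0.646, limma) and Scx -0.51 (adjusted p = 0.0959, limma). Scnn1g, which rose in C50, was at -0.75 in WT (adjusted p = 0.0295, limma). The differences between the WT and C50 changes themselves were not tested.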

How the data were processed

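Sorted GFP-positive and GFP-negative cells of clone C50 (2 libraries each) were compared, with the other clones and WT cells as reference. Groups came from the sample titles. The SMART-Seq HT kit (total RNA as input) and Nextera XT gave paired-end libraries, per the labels' protocols. STAR and RSEM are named in the submitters' processing notes without versions, and the genome build and annotation are not given in the sources used here. The authors deposited TPM per gene and library, with group means and a ratio of group means per comparison, which are quoted only as the authors' deposited values. TPM keep no depth, so no count test, interval or detection floor was used, and replicate spread is the measure of precision. 1 further column of values was not used. Lines sharing 1 of 79 symbols were summed, leaving 54514 entries.

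Models were fitted with limma 3.58.1 in R 4.3.3 to log2(TPM + 1) of the 13113 genes with a mean of at least 1 TPM over the 16 clone libraries, with a mean per clone and fraction (8 groups, 8 residual degrees of freedom), a mean-variance trend, two-sided tests and Benjamini-Hochberg adjustment over all genes. Without GFP-negative replicate 1, its lone partner is assumed to vary like the other groups. WT used its own 6 libraries. On simulated data for the C50 comparison (13113 genes), 84% and 78% of changes of 2 and -2 on the log2 scale were recovered, and 52% and 38% of changes of 1 and -1. Recovery was scored in the fit with all 16 clone libraries, not by the rule of both fits used for rises and falls. The simulated noise was independent between libraries and held no length trend like that of GFP-negative replicate 1. These rates therefore do not describe the reported rises and falls. Transcript lengths for 12922 genes came from GENCODE M21, and promoters from RefSeq.

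Genes were named by rule: Aqp2 and GFP; the 10 largest rises and 10 largest falls with and without GFP-negative replicate 1, at a mean of at least 5 TPM in C50 and no overlap, passing over provisional symbols; the 6 largest differences from the other clones each way; and up to 4 called members of each list with its defining markers. Other list members are given with their change only, and Cdk1, Ube2c and Ckap2l were chosen for their promoters. Some list members are counted but not reported here by name. The members and the 31 gene lists were chosen with earlier results of these data known. Alternatives were other pseudocounts, filters, scalings and moderation, a replicate block, C50 alone, each library left out, and, added after seeing the data, a length and GC correction.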

Additional observations from a re-analysis of the deposited data

Results flagged for a closer look

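The change in C50 differed from the mean change of C1, C11 and C43, by limma's test of that difference, for 122 genes. The differences in log2 change that follow are those of genes named in the report. Among transport, surface and secreted genes the differences were -1.61 for Aqp2, -1.52 for Psca, -1.47 for Spp1, -2.21 for Bst1, -2.32 for Cxcl10 and -1.01 for Lcn2. Cell-cycle genes differed by -0.91 (Gmnn), -1.21 (Birc5), -1.13 (Ccnb2), -1.14 (Cenpa) and -1.36 (Cdca3), and the YAP and TEAD target Ankrd1 by -1.34. Positive differences were 1.98 for Cpeb2, 1.62 for B4galnt2, 1.5 for Utrn, 1.46 for Tc2n, 1.25 for Stbd1, 0.92 for Hspa5 and 0.89 for Egfr. In the same order they were 1.53, 1.31, 1.01, 1.12, 1.05, 0.57 and 0.70 without GFP-negative replicate 1. The short RNA genes listed at 0 in a fraction of C50 had fitted differences of 5.25 (Snord70), -8.11 (Mir678) and -5.98 (Mir5135), which depend on the pseudocount and are no folds. These 22 genes were chosen among those called also without GFP-negative replicate 1. That library stood apart in ribosomal-protein share and transcript-length deviation. The 122 became 160 with ribosomal-protein and mt- genes left out, where the 22 kept their call, and 288 with the length and GC correction, where that of Egfr (0.29) was lost and the others were kept. Further genes of the report among the 122 were Cdk1 (-0.99), Ube2c (-1.22), Gapdh (-0.77), Pkig (-0.76), Ier2 (0.45), Med13 (1.24) and Mir130c (-3.91), called also without GFP-negative replicate 1. Scx (-1.50), Lncpint (1.88), Trib3 (1.51), Fdps (-0.54) and Srsf11 (0.54) were not called without it, with adjusted p = 0.0509, 0.0901, 0.0693, 0.0628 and 0.0693 (limma). The calls for Lcn2, Hspa5 and Egfr were lost when either GFP-positive library was left out, like those given in the report for Cpeb2, Utrn, Tc2n, B4galnt2, Stbd1, Cxcl10 and Bst1. Those for Mir678, Ccnb2, Cenpa and Spp1 were lost without GFP-positive replicate 2, and that for Psca without replicate 1.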

How the results depend on the processing

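The number of genes called in C50 (3486) was 2291 without a filter and 0 with the 4 C50 libraries alone, where 2 residual degrees of freedom remain and 2418 genes had an unadjusted p under 0.05. It ranged from 1797 (without GFP-positive replicate 2) to 6838 (without GFP-negative replicate 2), with 1889 without GFP-positive replicate 1 and 3111 without GFP-negative replicate 1. In the 4 libraries alone Aqp2 changed by 1.90 (adjusted p = 0.113, limma) and GFP by 7.43 (adjusted p = 0.0799, limma). The 2325 genes called with and without GFP-negative replicate 1 became 1467 without GFP-positive replicate 2 and 1553 without GFP-positive replicate 1. The 122 differences from the other clones became 41 without a filter, 278 with quantile normalization, 78 with no trend and 288 with the length and GC correction, and ranged from 18 to 6140 with a library left out. The share of C50 calls also called in WT was 16% with median-ratio scaling, 16.3% with quantile normalization and 23.1% with a filter of 5 TPM. The causes of these shifts were not tested, beyond the fewer samples or genes in the fit.

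The replicate block had a term for each clone and replicate number, so it paired same-numbered fractions within a clone. With 4 residual degrees of freedom, it left 3098 calls, 2917 of them shared with the 3486. The 2325 became 1528 and the 122 became 5 (Aqp2, Birc5, Mir678, Mir5135 and Snord70). Same-numbered libraries correlated in their deviations at 0.0544, 0.0151, 0.203 and 0.0825 in C1, C11, C43 and C50, so the numbers were not taken to pair libraries. The number of genes above 0 TPM did split by replicate number in both fractions of C50. Of 118 named changes, 0 reversed under 15 alternatives and 87 kept their call in all but C50 alone. Of the 22 differences from the other clones chosen among genes called also without GFP-negative replicate 1, 4 kept their call in all 14 alternatives. With 2 libraries per fraction and depth unknown, changes of low genes are limited.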
